A study of Mus musculus with 2 samples.

Results

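Of the 1130 Bcl3 peaks in the authors' list, 264 lay in an intron and more than 5 kb from every listed transcription start site (TSS), a share of 23.4% (exact Clopper-Pearson 95% interval 20.9 to 25.9%). They were chosen by position alone. The rule took the peaks that the authors' class table marks as intronic, 364 in all, and left out the 100 whose midpoint lay within 5 kb of the nearest start in the authors' wider gene annotation. The chromatin came from CGR8 cells, a line of mouse embryonic stem cells, grown undifferentiated on 0.1% gelatin in medium with 15% serum replacement and 1000 U/ml leukemia inhibitory factor (LIF). Both libraries, 1 Bcl3 chromatin immunoprecipitation and 1 input, came from cells grown this way, so there are no replicates, no spread between libraries could be measured and no test was made. The read depth is unknown, and the intervals below stand for counting error alone.

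Bcl3 is a nuclear protein of the IκB family. It reaches DNA by joining p50 or p52, the NF-κB subunits that lack an activation domain, and with them it can raise or repress transcription. Introns far from a gene start can hold enhancers, alternative promoters and unannotated transcripts. Positions below are in mouse build mm9, and the fold enrichment, Poisson score and false discovery rate (FDR) of each peak were taken as the authors gave them. What the fold enrichment is relative to is not named in the file header. The sequence under the peaks was not used here.

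Just inside the limit of 5 kb lay the peaks of Esf1 (5231 bp from the nearest listed start, log2 fold enrichment 3.36), Ythdf3 (5513 bp, 3.12) and Snhg12 (5567 bp, 2.77). Just outside lay those of Pop1 (4388 bp, 2.99), Gnai2 (4498 bp, 2.87) and Cbx7 (4663 bp, 2.90). Over all 264 peaks the distance to the nearest listed start ran from 5231 bp to 1215.6 kb, with a median of 54.2 kb and quartiles at 18.6 and 143.7 kb. In 93 peaks (35.2%, 29.5 to 41.3%) every listed start was at least 100 kb away, and in 69 (26.1%, 20.9 to 31.9%) one lay between 5 and 20 kb away. The transcript that holds a peak was not always in the wider annotation, so its own start could be nearer. The peak of 5430440P10Rik, named after its values were seen, was 169.0 kb from the nearest listed start. It lay 256 bp from the start of the transcript that holds it.

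The distal intronic peaks resembled the whole list, of which they are part, in median strength. Their median log2 fold enrichment was 2.93 (7.62-fold; range 2.48 to 4.02), and that over all 1130 peaks was also 2.93. The quartiles were 2.73 and 3.23, against 2.74 and 3.37 for the 247 peaks within 5 kb of a start, 2.71 and 3.17 for the 293 intergenic peaks at 5 to 100 kb, and 2.74 and 3.18 for the 305 intergenic peaks farther out or without a listed gene. A log2 fold enrichment of at least 3 was reached by 117 of the 264 peaks, or 44.3% (38.2 to 50.5%), beside 42.7% of all peaks. The median peak length was 200 bp, as over the whole list, and the range was 100 to 575 bp. Across the 264 peaks fold enrichment followed peak length (Spearman's correlation 0.72) but hardly the length of the host gene (-0.050) or the distance to the nearest listed start (-0.0061). These correlations describe peaks of 1 library and carry no p.

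**Figure D1:**
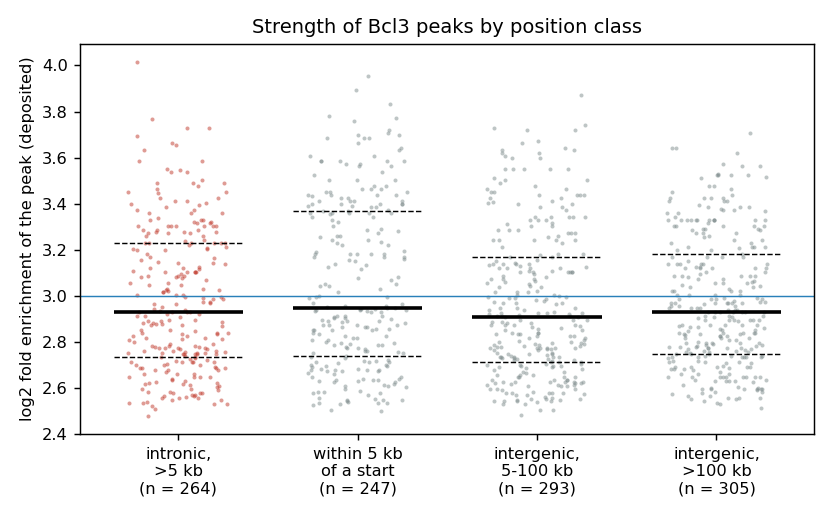
The deposited log2 fold enrichment of each peak (vertical axis, 1 point per peak) is plotted for the 264 distal intronic peaks and 3 other position classes, with the median as a thick line, the quartiles as dashed lines and a log2 value of 3 as a blue line. The medians lie between 2.91 and 2.95, and the upper quartile is highest, at 3.37, for peaks within 5 kb of a start.

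The statistical support of these peaks was as low as that of the list as a whole. The lowest FDR in the list, 0.179, was held by 51 of the 264 peaks (19.3%, 14.7 to 24.6%), beside 21.1% of all peaks. Among the 264, these were all the peaks with a log2 fold enrichment of 3.30 or more and no others. The lowest FDR thus restates fold enrichment and is no separate support. Among peaks within 5 kb of a start the lowest FDR was held by 74 of 247 (30.0%, 24.3 to 36.1%). The median FDR of the distal intronic peaks was 0.296 and their highest 0.619. The Poisson score, which is the -log10 of the smallest p in the peak, had a median of 5.73, and 6 peaks (2.27%, 0.839 to 4.88%) exceeded 10, beside 2.57% of all peaks. The difference in FDR between the position classes was not tested.

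The 10 most enriched peaks lay in genes of unlike function. The first, at 4.02 on the log2 scale, was in intron 7 of Myst2 (Kat7), which encodes a histone acetyltransferase, and covers positions 95146050 to 95146424 of chromosome 11. Its summit lay 25.3 kb into a transcript of 38.4 kb and 714 bp from the nearest exon. The second, at 3.77, lay in intron 3 of Esrrb, an orphan nuclear receptor of the pluripotency network, on chromosome 12 at 87839550 to 87839899. These were followed by Cdh13 (3.73), which encodes a cadherin without a cytoplasmic domain, with a peak in intron 5 on chromosome 8 at 121412775 to 121413099, 605.3 kb into the transcript. Tex14 (also 3.73), a gene of the bridges between dividing germ cells, had its peak in intron 2 on chromosome 11 at 87262450 to 87262774.

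Dlgap2 (3.69), which encodes a scaffold protein of the synapse, had its peak in intron 1 on chromosome 8 at 14133625 to 14133949. Mybl2 (3.66), a transcription factor gene of the cell cycle, had its peak in intron 11 on chromosome 2 at 162905600 to 162905849, 25.3 kb into a transcript of 30.1 kb. B230209E15Rik (3.65), a long non-coding RNA gene, had one in intron 2 on chromosome 7 at 68692250 to 68692599. The remaining peaks of the 10 were in Fut10 (3.63), a fucosyltransferase gene, in Klhl24 (3.58), which encodes a Kelch-family protein, and in Lrrc16a (Carmil1, 3.58), a gene of actin capping. Their introns were number 3, 3 and 11. All 10 had the lowest FDR, which follows from their fold enrichment.

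Ranking by Poisson score gave a different set, with weaker fold enrichment. The score reached its ceiling of 100 in intron 2 of Gm14405, listed as a transcribed pseudogene, where the log2 fold enrichment was 2.65 and the FDR 0.507. The listed transcript spans 1255.3 kb with 5 exons and lies in a region of similar zinc finger genes, so its placement is uncertain. Next came 6720456H20Rik (Tmem260) with a score of 11.9, St18 with 10.5, Nphs1 with 10.5 and Nlrp12 with 10.4. St18 encodes a zinc finger transcription factor, Nphs1 the slit diaphragm protein nephrin and Nlrp12 a regulator of innate immune signalling. Their log2 fold enrichments were 2.89, 3.00, 3.14 and 2.81. None of these 5 peaks had the lowest FDR, as their fold enrichment was too low for it. The summit at Nlrp12 lay in exon 10 rather than in an intron. A Zmynd8 peak had the same score as Nlrp12, 10.4.

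Each of the 264 peaks had a host transcript in the authors' closest-transcript sheet, belonging to 246 genes. Of these, 227 were protein coding, which is 1.04% of the protein-coding genes in the gene table. The hosts were long. The median length of the host transcript was 131.7 kb per peak, and 128.5 kb per host gene, whereas the median over the 8982 gene names in the authors' wider annotation was 18.6 kb. Host genes longer than 100 kb numbered 135 of 246 (54.9%), against 11.9% of the listed genes. Genes of over 100 kb hold 60.3% of the summed length of the listed genes, and genes above and below 147.3 kb contribute equally to that sum.

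The number of peaks per length of gene ran from 0.456 to 0.641 per Mb over 5 classes of gene length. For the 8935 genes of the wider annotation that matched the gene table, 233 of the 264 peaks had a host with a listed length, or 0.505 peaks per Mb of gene (exact Poisson 95% interval 0.443 to 0.575). Genes under 50 kb carried 0.507 per Mb (0.381 to 0.662) and genes of 50 to 200 kb 0.514 (0.409 to 0.638). Genes of 200 to 500 kb carried 0.471 (0.352 to 0.618), and genes of 500 to 1000 kb 0.456 (0.289 to 0.685). The 25 genes over 1000 kb carried 0.641 (0.402 to 0.971). All 5 intervals overlap, but they are wide and do not show that the densities are equal. The share of genes that hosted a peak climbed with length, from 0.767% of those under 50 kb to 4.55, 13.7, 28 and 60% in the successive classes. The annotation lists genes around peaks, so these shares and densities are not those of the whole genome, and the 5 kb rule removes more of a short gene than of a long one.

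Inside the hosts the peaks were spread along the whole transcript. The summit lay at a median of 50.8% of the transcript's length from its start, with quartiles at 24.6 and 74.7%. The first, middle and last of 3 equal stretches of the transcript held 87, 97 and 80 peaks. The median distance was 47.8 kb to the start of the host transcript and 52.2 kb to its end. Of the summits, 254 lay in an intron and 10 in an exon of the host transcript, while by the midpoint 261 lay in an intron. The class table marks 4 of the 264 as also exonic.

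**Figure D2:**
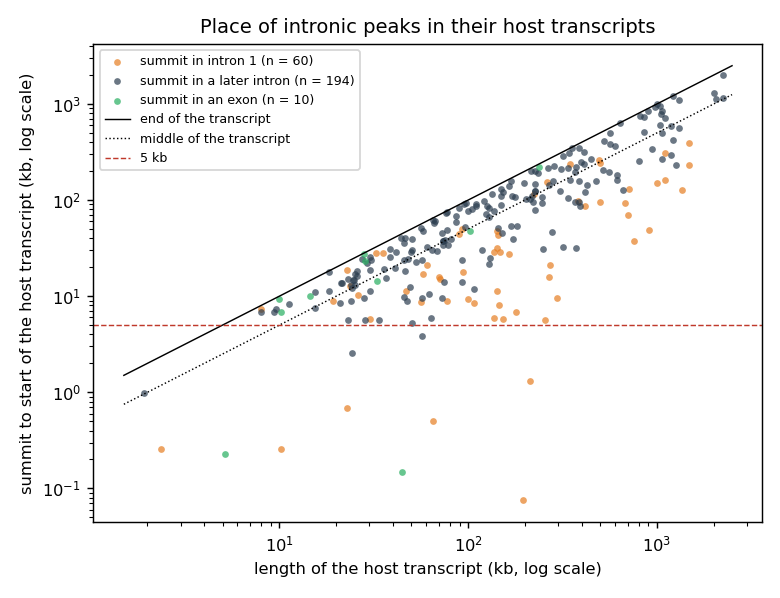
For each of the 264 peaks the distance from summit to the start of the host transcript (vertical axis, kb, log scale) is plotted against the transcript's length (horizontal axis, kb, log scale), coloured by the place of the summit. The points fill the space up to the line of the transcript's end, and 11 lie below the dashed line at 5 kb.

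The peaks were set by intron number beside the amount of sequence available. Intron 1 held 60 of the 254 intronic summits (23.6%), intron 2 held 37, intron 3 held 25 and intron 4 held 30. For 245 of these the summit was also more than 5 kb from the start of the host transcript itself. Among the 245, 22.0% (17.0 to 27.8%) lay in intron 1, which provides 20.8% of the intron sequence beyond 5 kb in the same transcripts, each transcript weighted equally per peak. The corresponding shares were 14.7% of peaks and 15.7% of sequence for intron 2, 9.39 and 11.95% for intron 3, 12.2 and 9.19% for intron 4, 22.4 and 20.9% for introns 5 to 9, and 19.2 and 21.4% for later introns. All 6 intervals contain the share of sequence, but they are wide and cover counting error alone. A match was not tested. The longest available intron of each transcript held 101 of the 245 peaks (41.2%, 35.0 to 47.7%), and it provides 41.2% of the sequence.

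**Figure D3:**
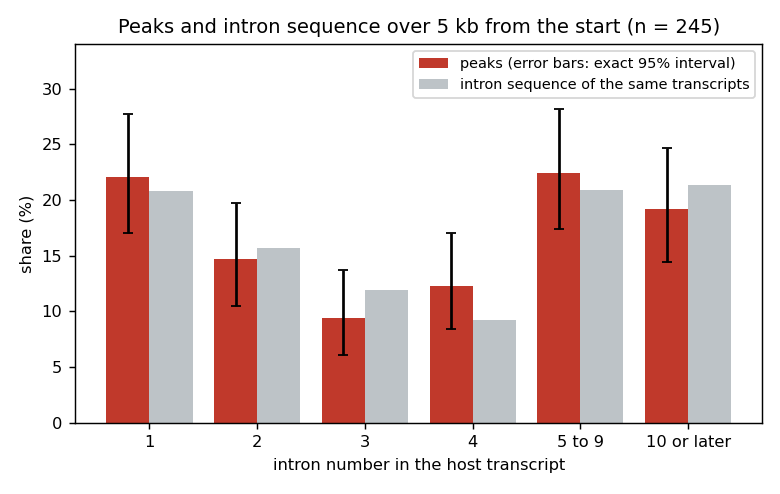
Red bars show the share of 245 peaks (vertical axis, %) by the number of the intron that holds the summit (horizontal axis), with exact 95% intervals, and grey bars the share of intron sequence of the same transcripts beyond 5 kb of the start. Intron 1 has 22.0% of the peaks and 20.8% of the sequence, and each interval contains the grey value.

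Most summits were far from exons as well as from starts. The median intron that held a summit was 21.5 kb long, and the median distance from the summit to the nearest exon edge was 5.20 kb. Within 200 bp of an exon edge lay 25 of 254 summits (9.84%), within 1 kb 70 (27.6%), and more than 10 kb away 86 (33.9%). Relative to the length of the intron, 50.8% (44.5 to 57.1%) lay in its outer parts, up to 25% of the length from either edge, which together make up 50% of an intron. Peaks in intron 1 had a median log2 fold enrichment of 2.90 and those in later introns 2.94. In hosts under 50 kb the median intron was 3.12 kb long and the summit 0.654 kb from an exon, whereas in hosts over 500 kb the medians were 161.8 and 37.2 kb. The 70 summits within 1 kb of an exon had a median of 2.88 and the 184 others 2.96.

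The authors' sheets do not always use the same transcripts, and 11 of the 264 peaks lay within 5 kb of the start of their own host transcript. These were chosen for mention after their values were seen. For 78 peaks the nearest listed start belonged to a gene other than the host, and for 232 of the 264 the wider annotation of the peak listed the host. The peak of C130039O16Rik (Mideas, log2 fold enrichment 3.54) had its summit in exon 1, 147 bp from the start. That of Sall2 (3.02), a spalt-family transcription factor gene, lay 230 bp and that of Snhg12 (2.77), a host of small nucleolar RNAs, 254 bp from the start. Pld1 (2.55), a phospholipase gene, had a peak 75 bp from the start of a listed transcript. Pvt1 (2.66), the non-coding RNA gene next to Myc, had one in intron 1 at 1325 bp. The others were 5430440P10Rik (256 bp), Vmn2r29 (502 bp), A330032B11Rik (684 bp), 2410006H16Rik (978 bp), 1700084F23Rik (2548 bp) and Mei1 (3895 bp). Only the peak of C130039O16Rik among these 11 had the lowest FDR.

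Non-coding hosts were few. Long non-coding RNA genes held 18 of the 264 peaks and a transcribed pseudogene 1, each in a different gene. Their median log2 fold enrichment was 2.89, against 2.93 for the 245 peaks in protein-coding hosts. The strongest was that of B230209E15Rik.

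The longest hosts carried some of the more isolated peaks. Cntnap2, which encodes a neurexin-family adhesion protein, spans 2241.3 kb and had a peak in intron 9 (3.09) and another in intron 18 (3.32). Lrp1b, a lipoprotein receptor gene of 2056.8 kb, had its peak in intron 7 (3.33). Macrod2, an ADP-ribose hydrolase gene of 1994.6 kb, had one in intron 6 (3.30), and this peak was also the farthest from any listed start, at 1215.6 kb. That start belongs to Kif16b, while the start of the Macrod2 transcript was 1290.5 kb away. The peaks farthest out after it were those of Cntnap2 in intron 9 (1160.5 kb) and Lrp1b (1127.2 kb). Magi2 (1477.7 kb) and Dlg2 (1358.5 kb), which encode synaptic scaffold proteins, completed the 5 longest. The 24 peaks in hosts over 1000 kb had a median log2 fold enrichment of 3.07 and the 68 in hosts under 50 kb one of 3.00. Those in between had medians of 2.92 at 50 to 200 kb, 2.87 at 200 to 500 kb and 2.85 at 500 to 1000 kb, so strength had no steady order with length.

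Repeated peaks in 1 host occurred in 17 genes, which held 35 of the peaks. Zmynd8, a gene for a chromatin reader, had 3, and 2 of its summits lay 670 bp apart. The other 16 genes had 2 each. Of the 17 genes, 9 were longer than 500 kb, and 5 had their peaks in the same intron, namely Magi2, Nrg3, Palb2, Pcdh11x and Rnf220. The 2 summits at Rnf220, a ubiquitin ligase gene, were 1470 bp apart (3.26 and 2.84), and those at Palb2, a gene of homologous recombination, 2245 bp (2.88 and 2.59). In the other genes with 2 peaks the distance ran from 14.01 kb at Kif11 to 1000.6 kb at Dlg2. It was 19.3 kb at Pcdh11x, 38.0 kb at Fam78b, 42.7 kb at Thrb, 167.0 kb at Magi2 (3.45 and 3.11) and 148.6 kb at Nrg3 (3.23 and 3.05). The peaks of Dlg2 had values of 3.55 and 2.70.

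Set side by side, the peaks of a gene often had unlike values, with no error to judge them by. Kif11, the gene of a mitotic spindle kinesin, had peaks of 3.40 and 3.10, and Thrb, a thyroid hormone receptor gene, of 3.40 and 2.87. Ctnna3 had 3.27 and 2.59, Slc10a7 3.15 and 2.70, and Pde4d 2.99 and 2.75. Erbb4 had 2.91 and 2.81, Fam78b 2.85 and 2.69, Pcdh11x 2.83 and 2.69, and Pld1 2.78 and 2.55, all below a log2 value of 3. Only 6 of the 17 genes, Cntnap2, Dlg2, Kif11, Magi2, Thrb and Zmynd8, had a peak at the lowest FDR, and none had more than 1. Over the 264 peaks the nearest other peak of the list was a median of 689.5 kb away, and 7 had one within 5 kb.

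**Figure D4:**
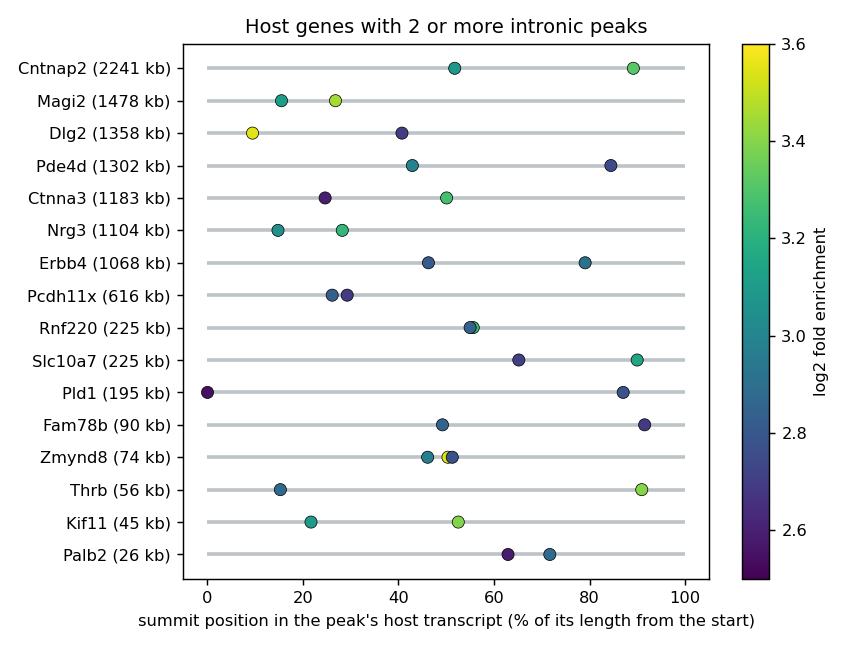
Each row is 1 of 16 host genes with 2 or more distal intronic peaks, ordered by length, and each point is a summit placed by its distance from the start of its listed transcript in % of that transcript's length (horizontal axis), coloured by log2 fold enrichment. For Dlg2 the listed transcripts of its 2 peaks differ in length, and the greater is given beside the name. At Rnf220 and Palb2 the points lie 1470 and 2245 bp apart.

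Host genes were then counted in 23 gene lists, where 83 of the 264 peaks fell on at least 1 list. The lists were chosen with earlier results of these data known, so the shares and intervals below describe and test nothing. Of the very long genes at common fragile sites, which are regions prone to break under replication stress, 14 of 37 (37.8%, 22.5 to 55.2%) hosted a peak, beside 1.04% of all protein-coding genes. Their hosts had a median length of 1120.9 kb, and the 12 list genes without a peak that have a listed length had one of 889.9 kb. Of all listed genes over 1000 kb, 60% hosted a peak, but the shares have unlike bases. The 60% covers genes listed around peaks, while the 37 include genes without a listed length. Some hosts on the list were also under 1000 kb, such as Rbms3 (679.7 kb). Of synaptic scaffold and receptor genes 10 of 65 (15.4%, 7.63 to 26.5%) were hosts. Their hosts had a median length of 556.4 kb and the other list genes with a listed length 234.8 kb. Of the genes on the cell adhesion and axon guidance list 15 of 104 (14.4%, 8.30 to 22.7%) were hosts. Their medians were 972.3 kb for the hosts and 269.9 kb for the others. The ion channel list, whose genes without a peak had a median of 291.1 kb, had 2 hosts of 56 (3.57%, 0.435 to 12.3%), Kcnip4 (3.10) and Cacnb2 (2.58). It is not complete for its class. Kcnk10 (2.55) and Trpm4 (2.53), named after their values were seen, are channel genes outside it that hosted a peak. The part of gene length in these counts was not tested.

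Among the synaptic genes the strongest peaks after Dlgap2 and Dlg2 were those of Magi2 (3.45) and Grm8 (3.42), a glutamate receptor gene. On the cell adhesion and axon guidance list, Cdh13, Lrp1b, Cntnap2 and Cdh2 (3.30), which encodes N-cadherin, led. Lrp1b is counted on that list, though it is a lipoprotein receptor gene. Of the 12 peaks in synaptic genes 7 had a log2 value of at least 3. So did 10 of the 19 peaks in the fragile-site list and 6 of the 18 in the adhesion list. The fragile-site list shares genes with both of the others.

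The pluripotency network had 3 hosts of 37 (8.11%, 1.70 to 21.9%), Esrrb, Mybl2 and Tfcp2l1, beside the 1.04% of all protein-coding genes. These hosts had a median length of 57.2 kb, and the 24 list genes without a peak that have a listed length had one of 9.08 kb. Of the listed genes of 50 to 200 kb, 4.55% hosted a peak. The part of length was not tested here or in the lists that follow. The peak of Tfcp2l1, a transcription factor gene downstream of LIF, was the weakest of them (intron 2, log2 fold enrichment 2.77, FDR 0.402). Chromatin regulators had 6 of 103 (5.83%, 2.17 to 12.2%). Their hosts had a median length of 95.9 kb and the other list genes with a listed length 65.5 kb. After Myst2 and the strongest Zmynd8 peak (3.55, intron 10) came the histone demethylase genes Kdm5b (3.30, intron 11) and Kdm2b (2.74, intron 6). The other hosts on the list were weaker. The chromatin list is also not complete for its class. Atad2 (3.49), Supt16h (3.24) and Morf4l1 (3.11), named after their values were seen, hosted a peak outside it. Developmental transcription factors had 4 of 95 (4.21%, 1.16 to 10.4%), Thrb, Sox6 (3.20, intron 8), Glis3 (3.02, intron 2) and Tfdp2 (2.97, intron 3). Their median was 241.0 kb, and that of the other list genes with a listed length 159.2 kb. That list is not complete for its class. Hosts outside it, chosen after their values were seen, include the transcription factor genes Pax6 (3.45, intron 7), Dach1 (3.05, intron 1), Sall2 and Foxp4 (2.97, intron 9).

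In the remaining lists with several hosts, the shares also stand beside the 1.04% of all protein-coding genes. The ubiquitin, RNA-binding and cell cycle lists are not complete for their classes. Ube2r2 (3.41), Ythdf3 (3.12), Rnpc3 (3.10) and Kif11 (3.40), named here after their values were seen, hosted a peak outside them. Ubiquitin ligase genes had 4 hosts of 57 (7.02%), among them Rnf220, Fbxl7 (3.08) and Marchf1 (2.74). The list of cyclic nucleotide and protein kinase signalling had 4 of 66 (6.06%). They were Plcb4 (3.10), a phospholipase C gene, Pde4d, Pde1c (2.63) and Prkca (2.62). RNA-binding genes had 3 of 46 (6.52%), Rbms2 (3.02), Rbms3 (2.62) and Igf2bp3 (2.62), and cell cycle and repair genes 3 of 74 (4.05%), 4930534B04Rik (Cep128, 3.14), Palb2 and Bard1 (2.61). Metabolic genes had 2 of 62 (3.23%), St8sia1 (2.88) and Suclg2 (2.72). In each of these lists the median host was longer than the median list gene without a peak that has a listed length. The 2 medians were 604.1 and 93.4 kb for the ubiquitin list and 340.9 and 173.0 kb for the cyclic nucleotide list. They were 129.7 and 106.7 kb for RNA-binding, 75.4 and 52.4 kb for cell cycle and 193.8 and 72.8 kb for metabolic genes.

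Single hosts came from the receptor tyrosine kinase list (1 of 62, Erbb4), the TGF-β and BMP list (1 of 40, Smad2 at 2.76), the receptor-type tyrosine phosphatases (1 of 21, Ptprr at 2.72) and the liver and muscle list (1 of 27, Neb at 3.41). No host came from the lists of LIF and STAT3 signalling (0 of 26, upper limit of the interval 13.2%), NF-κB pathway (0 of 40, 8.81%) or WNT signalling (0 of 48, 7.4%). The same was true of extracellular matrix (0 of 61, 5.87%), membrane trafficking (0 of 57, 6.27%) and fibroblast markers (0 of 20, 16.8%). The matrix and trafficking lists are not complete for their classes. Edil3 (3.20) and Mmp16 (2.67), which are matrix genes, and Snx12 (2.98), a trafficking gene, hosted a peak outside them. These hosts were named after their values were seen. With 1.04% of protein-coding genes hosting a peak, fewer than 1 host per list corresponds to that share in each of the 6 lists without a host. That share covers genes of all lengths, whereas hosting climbed with length among the listed genes. Genes with a listed length had a median of 147.6 kb in the matrix list and 161.7 kb in the trafficking list. Whether there was a shortage was not tested.

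**Figure D5:**
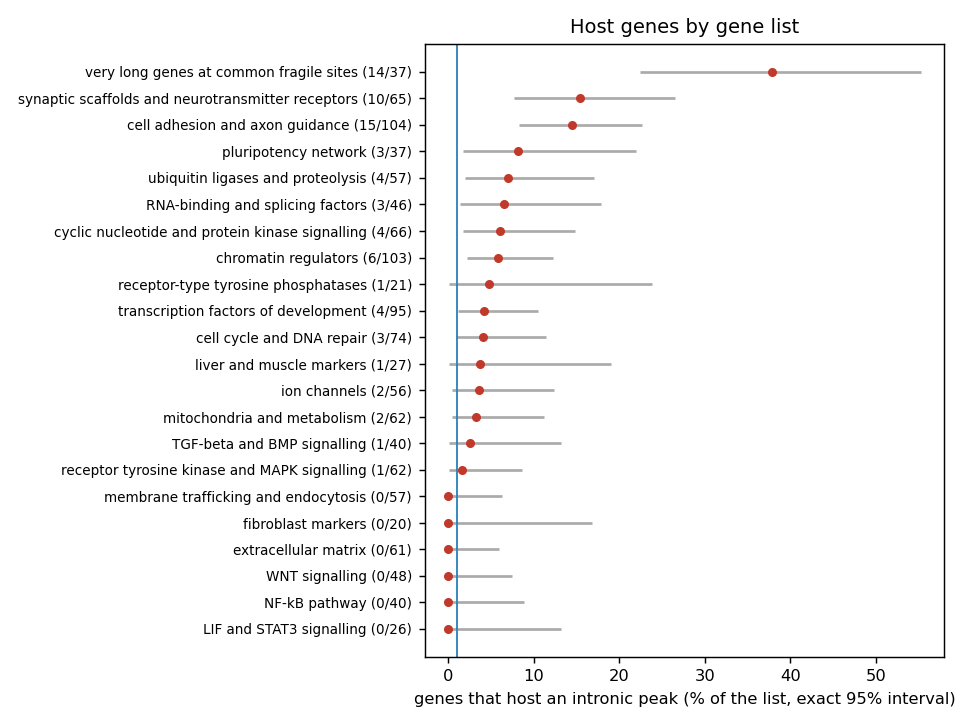
For 22 gene lists the share of its genes that host a distal intronic peak (horizontal axis, %) is plotted with its exact 95% interval, with hosts and matched genes in brackets. The blue line is the 1.04% of all protein-coding genes, and the list of very long genes at common fragile sites lies highest at 37.8%.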

How the data were processed

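One anti-Bcl3 library and 1 input library of CGR8 cells make up the series, and the authors' peak workbook of the Bcl3 library was analysed. The submitters' processing notes name the build mm9. Which aligner, peak caller, thresholds and use of the input led to the list is not given in the sources used here. The deposited FDR, named so in the header, was read as a q-value. Per the file headers, the log2 column holds the greatest fold change within a peak. The Poisson score is the authors' −log10 of the smallest Poisson p-value. The deposited T score was not used.

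Distance to a start was the smallest in the wider annotation, measured from the midpoint. Host gene, intron number and length came from the closest-transcript sheet, at the summit. The placement code was run on simulated positions drawn from the exon limits of the same host transcripts, and 254 of 254 were recovered. That checks the code alone, and cannot show a wrong transcript or a wrong coordinate base. Host names were matched to a GRCm38.p6 RefSeq table (264 of 264), used for names and gene class only. Gene lists held 1300 entries, 3 of which had no match. A host gene and a gene list are not reported here. Members and lists were chosen with earlier results of these data known.

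Peaks were named by a fixed rule, which took the 10 greatest fold enrichments, the 5 greatest Poisson scores, up to 4 hosts per list, hosts with 2 or more peaks, the 5 longest hosts, the 3 peaks farthest out and 3 on each side of 5 kb. Where an exception was named, the text says so. Python 3.11.15, pandas 2.3.3 and scipy 1.17.1 were used. Alternatives changed the distance limit, the source of the distance, the peak set and the merging of neighbours.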

Additional observations from a re-analysis of the deposited data

How the results depend on the processing

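Changing the distance limit to 2000 or 10000 bp gave 289 or 232 peaks, and the distance to the host transcript's own start gave 261. Their medians and shares stayed inside the 95% interval of the values reported. The same held when peaks also marked exon, UTR or promoter were left out (256 peaks) and when neighbours within 1000 bp were merged (263). Placing peaks by the midpoint was run for the share in intron 1 alone, which was 23.0%. Keeping the peaks of the lowest FDR left 51, with a median log2 fold enrichment of 3.41, a median length of 300.0 bp and 100% at a log2 value of at least 3 and, by construction, 100% at the lowest FDR. This set is the top of the list by fold enrichment. Keeping the 50% of the list with the greater Poisson score left 128, and their other values moved as little. Distances were already measured from the midpoint, so the planned midpoint alternative was not run for them. No paired analysis was possible because there is 1 ChIP library. An FDR of at least 0.179 and an unknown depth limit every statement on single peaks.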

Other observations

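The distal intronic peaks were found on chromosomes 1 to 19 and X, and their share of a chromosome's peaks varied. Chromosome 2 had 28 of 84 (33.3%), chromosome 1 had 22 of 72 (30.6%) and chromosome 19 had 8 of 27 (29.6%). The share was 13.6% on chromosome 11 (6 of 44) and 10% on chromosome X (5 of 50). These differences were not tested.

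In all, 181 of the 264 peaks lay in hosts on none of the lists, and some of these, chosen after their values were seen, were among the stronger ones. Mapk4, which encodes an atypical mitogen-activated protein kinase, had a peak in intron 1 (log2 fold enrichment 3.54). Atad2, which encodes a bromodomain ATPase, had one in intron 12 (3.49), 365 bp from the nearest exon. Nav3, a neuron navigator gene, had one in intron 29 (3.49), 22 bp from an exon. Fbxo36, an F-box gene, had a peak of 575 bp in intron 1 (3.49), and no distal intronic peak was longer.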
